A study of Arabidopsis thaliana with 12 samples.

Results

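Roots kept for 48 h on sulfur-deficient medium were compared with roots moved to fresh standard medium, the 0 h group, by their signals on one-colour Affymetrix arrays. The comparison was defined by the labels and holds the 2 arrays of the 48 h group and the 2 arrays of the 0 h group, 4 of the 12 arrays of a time course that also sampled 3, 12, 24 and 72 h. All roots were whole roots of Arabidopsis thaliana, ecotype Columbia, with no transgene or mutation named. Seedlings of both groups had grown for 5 days on standard MS medium, and the sulfur-deficient medium of the 48 h group held sucrose and agar. Replicates carry numbers in the labels, but whether they were separate cultures is not said, and the p-values therefore measure the spread between these arrays alone, which may be technical. Standard medium was sampled at 0 h only, so sulfur deficiency cannot be told apart from transfer, the time since it or seedling age. By the labelled times, which lie whole days apart, both groups would share an hour of day, but the actual hours of harvest were not checked.

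Plants take up sulfate through root transporters, activate it with ATP sulfurylase and reduce it to sulfide, which is built into cysteine and from there into methionine, glutathione and the glucosinolates. When sulfate is short, roots are known to raise uptake and recycling of sulfur and to cut the synthesis of glucosinolates, the sulfur-rich defence compounds of the cabbage family. BGLU28, a beta-glucosidase thought to release sulfur from glucosinolates, and AT1G04770 (SDI2), of the SULFUR DEFICIENCY-INDUCED family that restrains their synthesis, are common markers of that state.

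Signals of the 12 arrays had 2% trimmed means of 250.02 to 250.03. Across probe sets log2 signals correlated at 0.966 to 0.982 between replicates, and the median gap between replicates was 0.186 at 48 h and 0.242 at 0 h on the log2 scale. A probe set was tested if it lay above the 40th percentile of its array, a signal of 45.3 to 50.4, on at least 2 of the 12 arrays, which left 14678 of 22746 probe sets. A dim group below means one whose arrays both lay under that percentile. The table held no detection calls, so differences that involve a dim group are uncertain in size. Precision was limited by the number of arrays.

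Of the 14678 probe sets, 516 (3.52%) differed between 48 h and 0 h at an adjusted p of 0.05 in limma with Benjamini-Hochberg adjustment, and 285 of them (1.94%) by at least 2-fold, 135 higher (0.92%) and 150 lower (1.02%). The signal was higher at 48 h for 289 (1.97%) and lower for 227 (1.55%), with median log2 differences of 0.96 and -1.21. At least 4-fold differences were found for 24 higher and 35 lower probe sets. The median over all probe sets tested was 0.01. Leaving out 48 h replicate 1 gave 255 calls, and leaving out 48 h replicate 2 gave 191. Of the 0 h arrays, dropping replicate 1 gave 515 and dropping replicate 2 gave 284. Only 239 of the 516 had 1 gene named for them, while 265 belonged to probe sets with no gene listed and 12 to probe sets with several genes, so the gene groups below cover part of the response.

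Both measured sulfur deficiency markers rose, of 10 genes on that list. BGLU28 had signals of 646 and 1022 at 48 h, against 15.8 and 14.0 at 0 h. Its log2 difference was 5.77 ± 0.31 (SE, adjusted p = 1.33e-07), the highest among the named genes, and the 0 h arrays were dim. AT1G04770 had signals of 712 and 691 at 48 h, against 156 and 161 at 0 h, a rise of 4.42-fold (log2 2.14 ± 0.18, SE, adjusted p = 1.24e-05). For both genes the 48 h arrays lay far above the 0 h arrays, and both calls held without any 1 of the 4 arrays. The share of higher calls over all probe sets was 1.97%.

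In sulfate assimilation, 3 of 24 listed genes were measured and 1 was called, where 3.52% of all probe sets were. APS4, an ATP sulfurylase, the enzyme that activates sulfate, had signals of 358 and 272 at 48 h, against 1808 and 1759 at 0 h. It fell by 2.52 ± 0.20 in log2 signal (SE, adjusted p = 6.54e-06), which put it 5.72-fold lower at 48 h. APS3, another ATP sulfurylase, had 128 and 159 at 48 h and 105 and 102 at 0 h, a log2 difference of 0.47 that did not pass (adjusted p = 0.208). SIR, the sulfite reductase, stood at 0.34 (adjusted p = 0.242), and its arrays read 1779.7 and 1922 at 48 h, against 1568 and 1366 at 0 h. For all 3 genes the groups did not overlap, as for 43.8% of all probe sets, but those of APS3 and SIR lay closer together than those of APS4. None of the 12 sulfate transporters on the list had a probe set paired with it alone, and they are not analysed here.

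**Figure D1:**
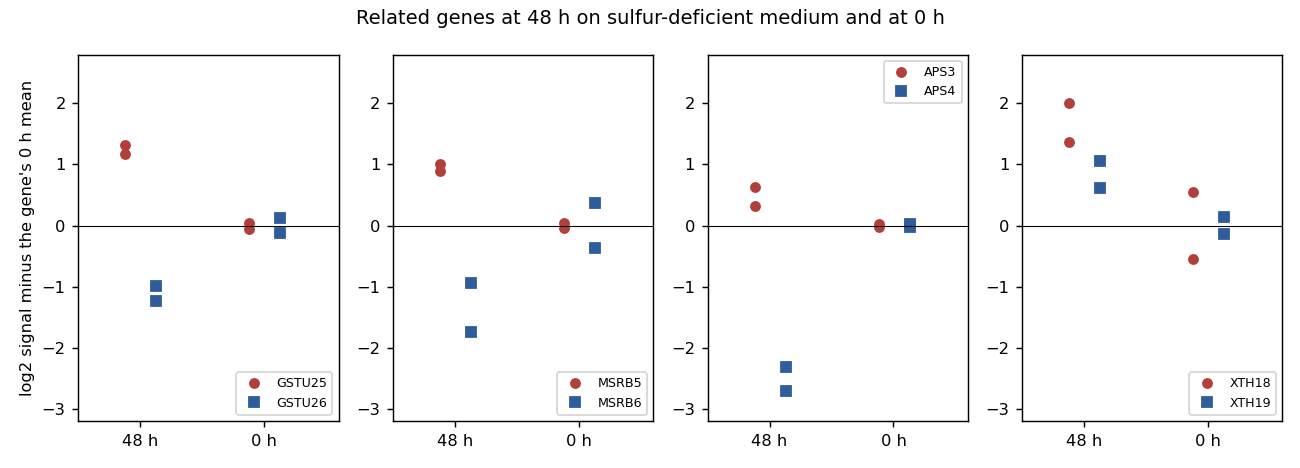
Log2 signal on each array after subtracting the gene's own mean at 0 h, for 4 pairs of related genes, with 48 h left of 0 h and 1 point per array. GSTU25 and MSRB5 lie above their 0 h points and their neighbours GSTU26 and MSRB6 below them, APS4 lies below its 0 h points, and XTH18 and XTH19 both lie above theirs.

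Of 11 listed genes of glutathione metabolism, 2 were measured. GR1, a glutathione reductase, had signals of 3839 and 3730.1 at 48 h, against 2966 and 3153 at 0 h, a log2 difference of 0.31 (adjusted p = 0.218). The other glutathione reductase, GR, stood at 0.02 (adjusted p = 0.97). Neither was called, and 1 of them had an unadjusted p below 0.05. The 2 measured genes of methionine cycling, HMT-1 and MGL, stood at 0.21 and 0.22 (adjusted p = 0.586 and 0.8), and neither had an unadjusted p below 0.05.

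Of 32 genes listed for glucosinolate synthesis, 5 were measured and 1 was called, lower, where 1.55% of all probe sets were called lower. BCAT4, the aminotransferase that starts the conversion of methionine into aliphatic glucosinolates, had signals of 465 and 425 at 48 h, against 738 and 716 at 0 h. It fell by 0.71 ± 0.17 in log2 signal (SE, adjusted p = 0.0316), a call that did not survive the loss of any 1 of the 4 arrays. The dioxygenase gene AT2G25450 stood at -0.32 (adjusted p = 0.375) and GSTU20 at -0.10 (adjusted p = 0.905). The glucosyltransferases of the last step but one, UGT74B1 and AT2G31790 (UGT74C1), stood at 0.05 and -0.00 (adjusted p = 0.941 and 0.997). The median of the 5 was -0.10, against 0.01 over all probe sets tested. PYK10, the abundant root beta-glucosidase that acts on glucosinolates when cells are damaged, stood at -0.26 (adjusted p = 0.378).

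A sugar transporter family gene and 3 reductases were among the named genes that rose. AT3G05400, of the sugar transporter family, had signals of 168 and 258 at 48 h and was dim at 0 h with 17.4 and 10.3, a log2 difference of 3.96 ± 0.28 (SE, adjusted p = 2.69e-06), or 2.91 with an offset of 16.3 added before log2. The isoflavone reductase-like gene AT1G75280 had 4615 and 6542 at 48 h, against 811 and 772 at 0 h, a rise of 6.94-fold (adjusted p = 1.31e-06). Its neighbour and relative AT1G75290 had 74.9 and 88.5 at 48 h and was dim at 0 h with 7.99 and 10.1, a log2 difference of 3.18 (adjusted p = 2.04e-05), or 1.95 with the offset. All of these groups were well separated, although cross-hybridisation between such close relatives was not tested. AT1G60750, an aldo-keto reductase, had 176 and 178 at 48 h and 48.8 and 53.4 at 0 h, which is 3.46-fold higher (adjusted p = 2.04e-05).

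Counted over the family, 3 of 12 measured isoflavone reductase-like and aldo-keto reductases rose and none was called lower, where 1.97% of all probe sets were called higher. Their median log2 difference was 0.14 and they ran from -1.14 to 3.18, so the rise belonged to a few members. The next in line, AT1G60730, stood at 0.79 (adjusted p = 0.0837). It was chosen for mention after its value was seen.

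Glutathione transferases of the tau and phi classes, which attach glutathione to reactive compounds and xenobiotics, changed in both directions. Of 11 measured, 3 rose and 2 fell, 5 in all where the share over all probe sets was 3.52%, and the median was 0.08. GSTU25 had signals of 5923 and 6519 at 48 h, against 2533 and 2710.5 at 0 h (log2 difference 1.25 ± 0.12, SE, adjusted p = 3.05e-05). GSTU22 had 3827 and 3799.9 at 48 h and 1836 and 2331 at 0 h, a rise of 1.84-fold (adjusted p = 0.00171). GSTU27 rose by 0.74 on the log2 scale (adjusted p = 0.00678), a call lost without either 48 h array. Against these, GSTU26 had 724 and 615 at 48 h and 1568 and 1326 at 0 h, and fell by 1.11 ± 0.22 in log2 signal (SE, adjusted p = 0.0102), a call lost when either 0 h replicate 1 or 48 h replicate 2 was left out. GSTU28 fell by 0.92 (adjusted p = 0.014) and was named after its value was seen. Its call was lost when 0 h replicate 2 or either 48 h array was left out.

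GSTU25 and GSTU26 are direct neighbours on chromosome 1, with 0 protein-coding genes between them in the gene table, and moved in opposite directions. A second such pair was found among the methionine sulfoxide reductases, which repair oxidised methionine. MSRB5 had signals of 4717 and 5097 at 48 h, against 2471 and 2620.2 at 0 h, a rise of 0.95 ± 0.13 on the log2 scale (SE, adjusted p = 0.000896). MSRB6, next to it on chromosome 4, had 294 and 169 at 48 h and 440.5 and 732 at 0 h, and fell by 1.35 ± 0.30 (SE, adjusted p = 0.0233). The rise of MSRB5 held without any 1 array, while the fall of MSRB6 was lost when either 0 h replicate 2 or 48 h replicate 2 was left out. No other of the 5 measured members of that family was called, where 3.52% of all probe sets were. These pairs were singled out after their values were seen, and the plot of related genes shows both.

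UDP-glycosyltransferases, which attach sugars to hormones, phenolics and other small molecules, had 5 rises and no fall among 31 measured, where 1.97% of all probe sets were called higher and 1.55% lower. UGT87A2 had 698 and 996 at 48 h, against 326 and 339 at 0 h, which is 2.51-fold higher (adjusted p = 0.000873). UGT84A3, which makes glucose esters of hydroxycinnamic acids, had 205 and 211 at 48 h and 99.3 and 64.7 at 0 h (2.60-fold, adjusted p = 0.00252). UGT72E2, which glucosylates lignin precursors, had 2113 and 2438 at 48 h and 1266 and 1022 at 0 h, a log2 difference of 1.00 ± 0.16 (SE, adjusted p = 0.00228). The groups did not overlap in these genes. They did not overlap in 14 of the 31 measured, against 43.8% of all probe sets. UGT73B5 rose by 0.86 (adjusted p = 0.0138), and its relative UGT73B4, named after its value was seen, by 0.61 (adjusted p = 0.0166). These last calls were both lost without any 1 of the 4 arrays, which left 3. The median of the 31 was 0.08, with a range of -0.59 to 1.38.

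Other named genes with the highest differences came from several families. CP1, a cysteine protease, had signals of 638 and 678 at 48 h, against 117 and 133 at 0 h, a rise of 5.27-fold (adjusted p = 3.54e-06). AT4G31330 had 293 and 317 at 48 h and 63.9 and 42.3 at 0 h, which is 5.86-fold higher (adjusted p = 0.000133). Both genes kept the call without any 1 array. AT2G43590, with 3795 and 4295 at 48 h and 1269.6 and 741 at 0 h, rose by 2.06 on the log2 scale (adjusted p = 0.00243). AT4G33960 rose by 1.83 (adjusted p = 0.000226), AT1G66760 by 1.87 (adjusted p = 0.00427) and AT3G47510 by 1.63 (adjusted p = 0.00263), and of these AT1G66760 lost its call without 48 h replicate 2. The rise of AT2G40250, at 1.87 (adjusted p = 0.0358), depended on a 0 h array with a signal of 12.5 beside one of 46.6, both dim. It was 0.91 and not past the threshold once 0 h replicate 2 was left out, and was also lost without either 48 h array.

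**Figure D2:**
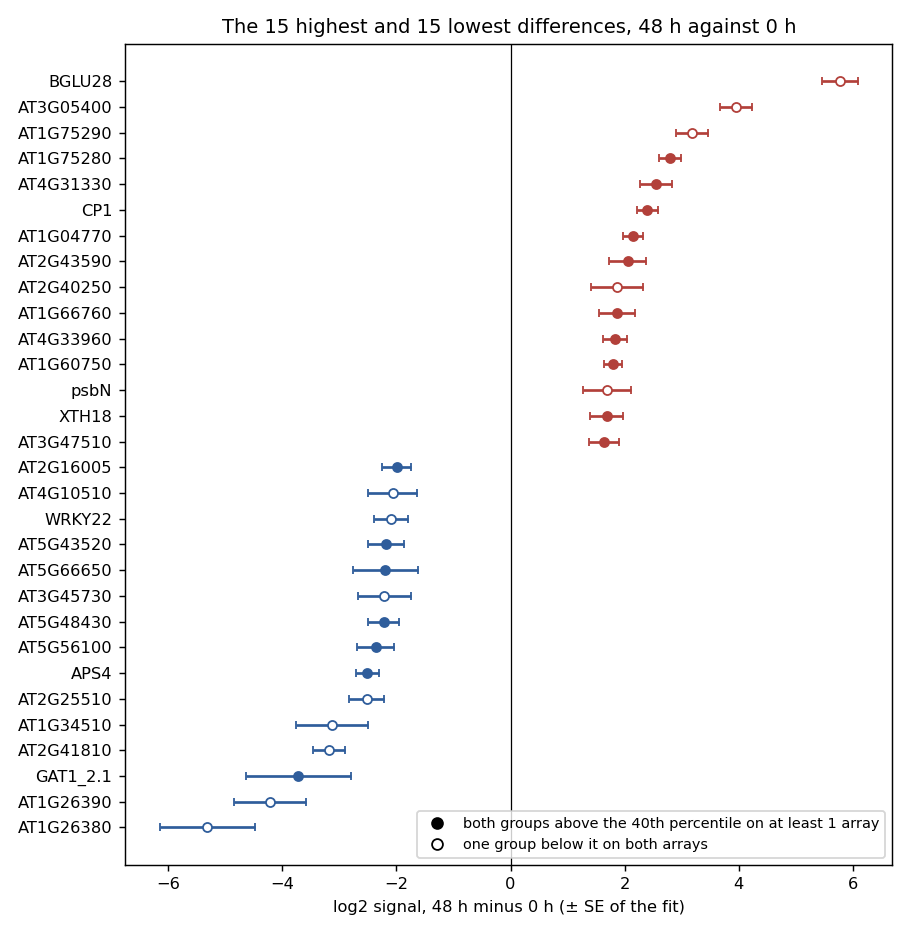
Log2 difference of signal, 48 h minus 0 h, for the 15 highest and 15 lowest named genes among those called, with bars of 1 SE of the fit. Open points have a group below the 40th percentile on both arrays, and the values run from 5.77 for BGLU28 to -5.32 for AT1G26380.

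Genes of cell wall growth moved in part. Of 7 measured xyloglucan endotransglucosylases, enzymes that cut and rejoin wall xyloglucan, 2 rose and the median was 0.51. Over all probe sets, 1.97% were called higher. XTH18 had 1372 and 872 at 48 h, against 232 and 498 at 0 h, a log2 difference of 1.69 ± 0.29 (SE, adjusted p = 0.00427). Its neighbour XTH19 had 1425 and 1059 at 48 h and 627 and 757 at 0 h (0.83, adjusted p = 0.0111). Both calls were lost without 48 h replicate 1, and that of XTH19 also without 0 h replicate 1. Across all 7 the groups did not overlap, as was the case for 43.8% of all probe sets tested. Of the 7, 6 lay above 0 and 1 below, with a range of -0.61 to 1.69.

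Among 13 measured expansins, proteins that loosen the wall, 1 was called, lower, where 1.55% of all probe sets were called lower. EXPA18, an expansin of root hairs, had 327 and 336 at 48 h and 562 and 646 at 0 h (-0.86, adjusted p = 0.0362), and the call was lost without any 1 of the 4 arrays. EXPA7, the other root hair expansin, had 373 and 407 at 48 h and 682 and 906 at 0 h, a log2 difference of -1.01 that did not pass (adjusted p = 0.0843). The root hair gene AT5G06630 stood at -1.42 (adjusted p = 0.0693), with 261 and 305 at 48 h and 1184 and 485 at 0 h. Summed over the 4 measured root hair markers, of 32 listed, the signal was 1000.0 and 1097.3 at 48 h, against 2496.8 and 2091.7 at 0 h. No marker was at 0, and 1 of the 4 was called, with a median of -0.94. In whole roots fewer hair cells and less RNA per hair cell cannot be told apart.

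Most measured sugar starvation genes fell. Of 5, 4 were called lower at 48 h, with a median of -1.68 against 0.01 over all probe sets, where 1.55% were called lower. Such genes are known from plants kept in darkness or without sugar. The list, like the others, was written with earlier results of these data known, so its share of calls is no independent support. GAT1_2.1, a glutamine amidotransferase-like gene, had signals of 198 and 262 at 48 h, against 2642 and 3409 at 0 h, and fell by 3.72 ± 0.92 in log2 signal (SE, adjusted p = 0.0405). AT1G80380 had 481 and 403 at 48 h and 1579 and 1611 at 0 h, 3.62-fold lower at 48 h (adjusted p = 0.000509). AT3G15450 had 2369.9 and 1912 at 48 h and 6206 and 7508 at 0 h (-1.68, adjusted p = 0.0164). AKINBETA1, a regulatory subunit of the energy-sensing kinase SnRK1, fell by 0.67 (adjusted p = 0.0454). The remaining member, AT2G20670, stood at -1.48 (adjusted p = 0.0532).

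The groups did not overlap for any of the 5, as for 43.8% of all probe sets, and the calls were uneven. That of AT1G80380 held without any 1 array. Those of GAT1_2.1 and AKINBETA1 were lost without any 1 of the 4 arrays, and that of AT3G15450 when 0 h replicate 2 or either 48 h array was left out, so that 2 calls were left without 0 h replicate 1 and 1 without each of the others. With the replicate number as a block AKINBETA1 no longer passed (adjusted p = 0.0602). GAT1_2.1 did not pass after quantile normalization (adjusted p = 0.0579), with no filter (0.0716) or with no trend of the prior variance (0.117). The SE of GAT1_2.1 came from all 12 arrays, among them the 3 h arrays with signals of 32.4 and 1.42. With the offset its SE was 0.40 (adjusted p = 0.000123), and its call also held with the 4 compared arrays fitted alone.

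Branched-chain amino acid breakdown, a mitochondrial route that feeds respiration when carbon is short, had 2 falls among 7 measured genes, where 1.55% of all probe sets were called lower. Their median was -0.18, against 0.01 over all probe sets. IVD, isovaleryl-CoA dehydrogenase of leucine breakdown, had 460.0 and 299 at 48 h, against 725 and 949.9 at 0 h (-1.16, adjusted p = 0.0194). MCCA, a subunit of the next enzyme of that route, had 369 and 283 at 48 h and 535 and 948 at 0 h (-1.14, adjusted p = 0.0236). The partner subunit MCCB stood at -0.67 (adjusted p = 0.129). The calls of IVD and MCCA were both lost when either 0 h replicate 2 or 48 h replicate 2 was left out, and MCCA stood at -0.73 without 0 h replicate 2 and also lost its call without 48 h replicate 1.

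**Figure D3:**
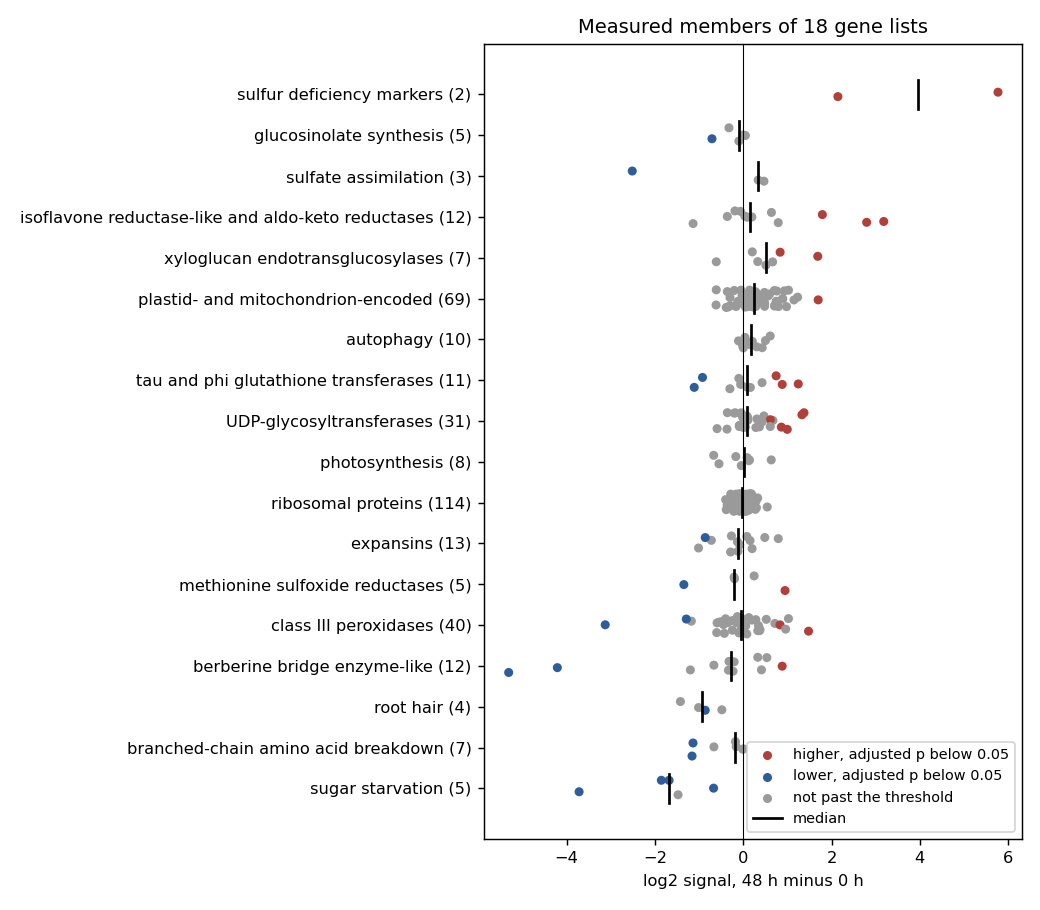
Log2 difference of signal, 48 h minus 0 h, for every measured member of 18 gene lists, 1 point per gene, with the number measured in brackets and the median as a black bar. Red points were called higher and blue points lower; sugar starvation genes lie left of 0 with a median of -1.68, while the 114 ribosomal protein genes lie between -0.40 and 0.54.

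Oxidases of the berberine bridge enzyme-like family, several of which act on defence compounds and wall sugars, fell at a neighbouring pair of genes. AT1G26380 had 4.08 and 2.38 at 48 h, against 158 and 97.4 at 0 h, and its neighbour AT1G26390 had 9.30 and 11.1 at 48 h, against 284 and 125 at 0 h. The log2 differences were -5.32 ± 0.83 and -4.21 ± 0.63 (SE), and both genes were dim at 48 h. Outside 0 h only 3 h replicate 1 lay above the 40th percentile, with signals of 66.8 and 97.1. The filter asked for 2 arrays, so both genes could be tested only through the group in which they were high. Their differences are given as a description. With an offset of 16.3 added before log2 they stood at -2.855 and -2.96, so their size depends on that setting, and GAT1_2.1, at -3.63, was then lower than either. Of the 12 measured members 2 fell and 1 rose, where 1.55% of all probe sets were called lower and 1.97% higher. The riser, AT4G20820, had 275 and 246 at 48 h and 134 and 148 at 0 h (0.88, adjusted p = 0.0219), a call that did not survive the loss of any 1 of the 4 arrays.

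Class III peroxidases, secreted enzymes of wall cross-linking and reactive oxygen, had 2 rises and 2 falls among 40 measured of 74 listed, where 1.97% of all probe sets were called higher and 1.55% lower, and a median of -0.05. AT5G64120 had 3855 and 3019 at 48 h, against 7314 and 9524 at 0 h, 2.45-fold lower at 48 h (adjusted p = 0.00974). Next to it, AT5G64110 and AT5G64100 stood at -1.18 and -0.56 and did not pass (adjusted p = 0.239 and 0.108). AT1G34510 had 23.6 and 15.2 at 48 h, dim, and 170.3 and 161 at 0 h (-3.13). Outside 0 h it was above the 40th percentile only on 3 h replicate 1, at 139. It could thus be tested only through the group in which it was high, and its difference is given as a description. The rises were of AT1G14550, with 256 and 234 at 48 h and 99.4 and 77.5 at 0 h (1.48, adjusted p = 0.0126), and of AT3G28200 at 0.83 (adjusted p = 0.00673). None of these 4 calls held without 48 h replicate 2. Both falls were also lost without 0 h replicate 2, as was the rise of AT1G14550, that of AT1G14550 also without 48 h replicate 1, and that of AT1G34510 also without 0 h replicate 1.

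Among hormone and defence regulators the calls were falls, where 1.55% of all probe sets were called lower. GH3.3 and WES1 join auxin to amino acids and are themselves induced by auxin. GH3.3 had 96.1 and 91.9 at 48 h, against 262 and 251 at 0 h (-1.45, adjusted p = 0.00825), and WES1 had 163 and 118 at 48 h, against 396 and 294 at 0 h (-1.30, adjusted p = 0.00736). The other 3 measured auxin response genes, LBD16, IAA18 and GH3.17, stood at -0.07, 0.38 and 0.50. Both calls were lost without 48 h replicate 2, that of GH3.3 also without 48 h replicate 1 and that of WES1 also without 0 h replicate 1. WRKY22, a transcription factor of pathogen signalling, was dim at 48 h with 27.6 and 23.8, against 91.3 and 131 at 0 h (-2.09, adjusted p = 0.00114). It was the 1 of 5 measured WRKY factors that was called.

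The other named falls were of genes outside the lists. AT2G41810 was dim at 48 h with 39.9 and 29.8, against 281 and 351 at 0 h (-3.19, adjusted p = 2.04e-05). AT5G48430 had 296 and 229 at 48 h and 997 and 1481 at 0 h, 4.67-fold lower at 48 h (adjusted p = 0.000315). AT5G56100 had 77.3 and 57.7 at 48 h and 292 and 404 at 0 h, 5.14-fold lower at 48 h (adjusted p = 0.000886). These calls held without any 1 array. The lipid-recognition gene AT2G16005 had 698 and 425 at 48 h and 2359 and 1995 at 0 h, 3.98-fold lower at 48 h (adjusted p = 0.000495). AT5G43520 stood at -2.18 (adjusted p = 0.00122) and AT2G25510, dim at 48 h, at -2.52 (adjusted p = 0.000351). Less firmly, AT4G10510, dim at 48 h, stood at -2.07 (adjusted p = 0.0143) and AT5G66650 at -2.20 (adjusted p = 0.0495). AT3G45730 was above the 40th percentile on the 0 h arrays alone, with 17.98 and 33.5 at 48 h and 144 and 89.5 at 0 h, so it could be tested only through the group in which it was high, and its difference of -2.21 is given as a description. Of the 227 probe sets called lower, 4 were above it on the 0 h arrays alone, and of the 289 called higher, 0 on the 48 h arrays alone. Probe sets that passed the filter through 0 h with 1 further array, such as those of AT1G26380, AT1G26390 and AT1G34510, are not in that count. AT4G10510 lost its call when either 0 h replicate 1 or 48 h replicate 2 was left out, and AT5G66650 when 0 h replicate 2 or either 48 h array was left out.

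Single calls were found in further lists, where 3.52% of all probe sets were called. The clock gene GI had 375 and 305 at 48 h, against 167 and 120.0 at 0 h (log2 difference 1.26 ± 0.19, SE, adjusted p = 0.00164), while CCL, the other measured clock-regulated gene, stood at -0.81 (adjusted p = 0.538). CYP71B26, 1 of 8 measured cytochromes P450, had 473 and 361 at 48 h and 191 and 179 at 0 h, 2.23-fold higher (adjusted p = 0.00265). The small heat shock protein gene AT5G51440 had 254 and 379 at 48 h and 118 and 100.1 at 0 h, 2.85-fold higher (adjusted p = 0.000681), as the 1 of 4 measured. Calls of these genes held without any 1 array. The histone gene AT2G28720 rose by 0.67 (adjusted p = 0.0218), which was lost without any 1 of the 4 arrays, and no other of 9 measured histone genes was called.

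Other lists had few calls or none. None of 114 measured ribosomal protein genes was called, 6 had an unadjusted p below 0.05 where 15.4% of all probe sets did, and their median was -0.03, or 0.01 after quantile normalization. Of 69 genes encoded by plastids and mitochondria 1 was called: psbN, dim at 0 h, with 51.5 and 95.2 at 48 h and 24.1 and 19.3 at 0 h (1.70, adjusted p = 0.0405), a call that did not survive the loss of any 1 of the 4 arrays. The median of the 69 was 0.23, and 53 lay above 0. Of all 14678 probe sets tested, 7627 lay above 0 and 1.97% were called higher. None of 10 measured autophagy genes passed, while 8 lay above 0 and 3 had an unadjusted p below 0.05. ATG8B was highest at 0.61 (adjusted p = 0.063) and passed with the stricter filter (adjusted p = 0.0487). Of 10 thioredoxins and glutaredoxins none passed and 2 had an unadjusted p below 0.05, and GRXC2 passed without 0 h replicate 2 (adjusted p = 0.0486). None of the measured members on the lists of hypoxia (2 of 5 below an unadjusted p of 0.05), iron deficiency (1 of 3) and germin-like proteins (1 of 4) was called.

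On the list of chitinases and pathogenesis-related proteins, which held 3 genes by their symbols, 2 had an unadjusted p below 0.05. Members of these families without such a symbol were not on the list, so its counts do not cover the families. ChiC stood at 0.95 (adjusted p = 0.133) and PR-1-LIKE at -1.23 (adjusted p = 0.182). Without 0 h replicate 1, ChiC stood at 1.43. Both genes passed with a replicate block in which the 48 h numbers were crossed (adjusted p = 0.0233 and 0.00279). That setting was added after the data were seen, so these passes are no further support for either gene.

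The labelled tissue could be checked only in part, since few markers of root cell types had a named probe set. The 8 measured photosynthesis genes summed to 1518.3 and 1169.6 at 48 h and 1244.2 and 1443.1 at 0 h, and the groups overlapped. No member was called, and 1 had an unadjusted p below 0.05. The 2 endodermis markers summed to 611.56 and 550.45 at 48 h and 473.74 and 703.04 at 0 h, with neither called. The root tip marker AGL42 had 119 and 142 at 48 h and 133 and 85.9 at 0 h. The part of cell type shares in the results was not tested beyond these sums.

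The comparison of 48 h with 24 h asked which values were not yet reached a day earlier, and the 0 h arrays do not enter it. In limma, 3 of 14678 probe sets passed (0.0204%), all lower at 48 h, and 490 (3.34%) had an unadjusted p below 0.05. AT2G16005 had 698 and 425 at 48 h, against 2364 and 2289.8 at 24 h, and fell by 2.095 ± 0.25 in log2 signal (SE, adjusted p = 0.0151). APS4 had 358 and 272 at 48 h, against 765 and 979.9 at 24 h, and fell by 1.47 ± 0.20 (SE, adjusted p = 0.0204). AT3G07720 had 1236 and 1189 at 48 h, against 2883 and 3428 at 24 h, and fell by 1.37 ± 0.19 (SE, adjusted p = 0.0204). In all 3 the arrays of the groups lay apart, which the rule for naming genes required. All 3 calls were lost when either 24 h array or 48 h replicate 2 was left out, that of AT3G07720 also without 48 h replicate 1, and the count was 21 when the 48 h and 24 h arrays were fitted alone.

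The 3 genes reached their 48 h values by different courses. Mean signals of AT2G16005 at 0, 3, 12, 24, 48 and 72 h were 2177, 3696, 3124, 2327, 561 and 123. Those of APS4 were 1783, 1512, 994, 873, 315 and 176, lower at each later time. AT3G07720 had means of 968, 2405, 3287, 3155, 1213 and 1233 at the same times, so it was back near its 0 h level at 48 h, where its difference from 0 h was 0.33 (adjusted p = 0.439). BGLU28 had means of 14.9, 2377, 266, 469.6, 834 and 2182, and AT1G04770 had means of 159, 952, 567, 578, 701 and 819. The 48 h values of these markers lay above those at 24 h by 0.79 and 0.29 on the log2 scale, and neither difference passed.

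**Figure D4:**
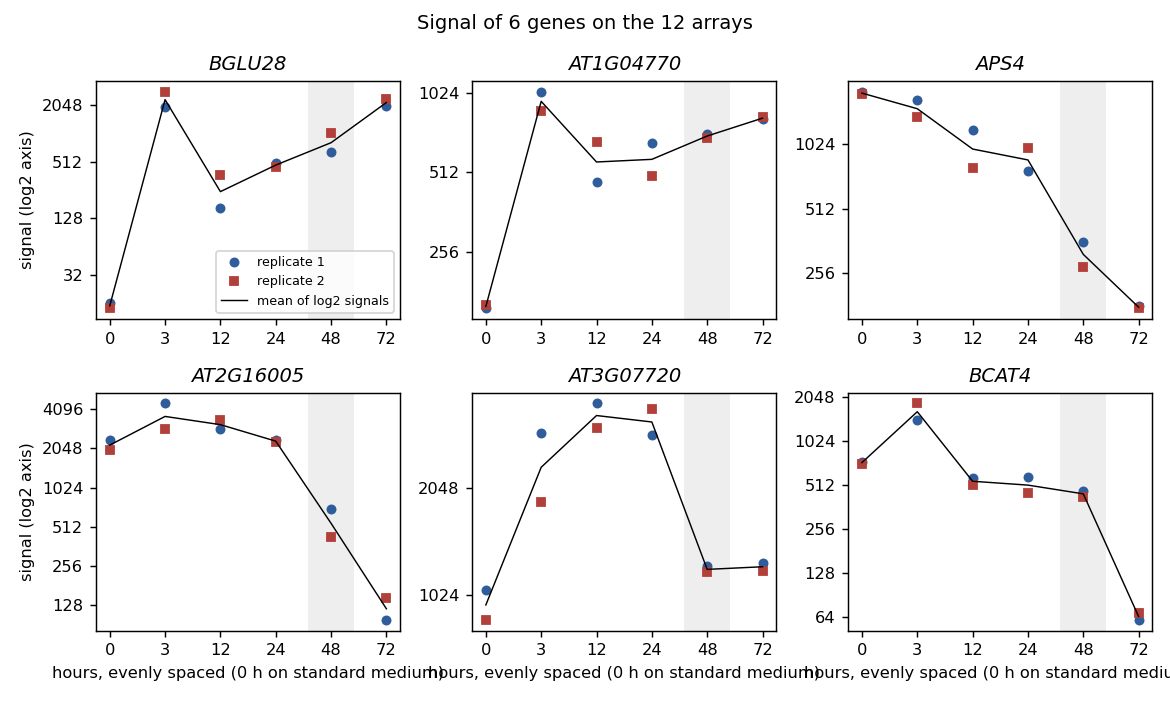
Signal on each of the 12 arrays for 6 genes at 0, 3, 12, 24, 48 and 72 h, on a log2 axis with evenly spaced times, 1 point per array and a line through the mean of the log2 signals; 48 h is shaded. APS4 and AT2G16005 are lower at 48 h than at 24 h, AT3G07720 is back near its 0 h signal, and BCAT4 is far lower at 72 h than at 48 h.

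Against the mean of 24 h and 72 h, a comparison of 48 h with its neighbours in time, 1 of 14678 probe sets passed (0.00681%) and 443 (3.02%) had an unadjusted p below 0.05. It belonged to BCAT4, at 1.29 ± 0.14 on the log2 scale (SE, adjusted p = 0.00653). Its signals were 465 and 425 at 48 h, against 575 and 453 at 24 h and 61.3 and 68.3 at 72 h. The 48 h arrays thus lay within reach of the 24 h arrays and far above the 72 h arrays, and the 48 h minus 24 h difference was -0.20. The call was lost without either 48 h array (adjusted p = 0.234 and 0.173).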

How the data were processed

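The deposited table holds a linear intensity for each array and probe set. The authors made these intensities with MAS5, per the submitters' processing notes, a method that corrects each array for local background and summarises the probe pairs; the sources used here give no scaling target. Biotin-labelled cRNA was made by a one-cycle protocol from RNA purified on columns, per the labels. No other columns of per-sample values were present (0). The intensities were used as deposited, as log2 with no offset. Of 22810 probe sets, 64 controls were left out. Group means over all 12 arrays were fitted with limma (version 3.58.1, R 4.3.3, 6 residual degrees of freedom, eBayes with trend) and p-values adjusted by Benjamini-Hochberg over all 14678 probe sets tested.

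Names came from GEO's platform table, which paired 13513 probe sets with 1 gene, 503 with several and left 8730 unlisted, updated through a TAIR10.1 gene table (13436 matched), which also gave neighbours. Genes with more than 1 probe set were represented by the brightest on average (mean log2 signal). Named genes are the 15 highest and 15 lowest called genes whose groups did not overlap and whose higher group was not dim, all measured members of the sulfur lists, and up to 4 called members of each other list by p, or up to 2 where none was called. For 48 h against 24 h the 8 highest and 8 lowest by that rule were taken, which were 3, and for the third comparison 5 and 5, of which none met it, so BCAT4 was named after its value was seen. Members and lists were chosen with earlier results of these data known, and loci of families such as peroxidases, reductases and ribosomal proteins were added once the gene table was found to hold no descriptions. No measured gene was found for the lists of phosphate starvation, jasmonate, abscisic acid, suberin and lignin, aquaporins, small auxin up RNAs, cytokinin, nitrate transporters, and xylem and phloem. Alternatives were an offset, quantile normalization, other filters, no trend, the compared groups alone, a replicate block and leaving out each array. No sequences or coordinates are given.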

Additional observations from a re-analysis of the deposited data

Results flagged for a closer look

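The 4 results below are differences between time points that passed a test of the difference itself. At 48 h against 24 h, APS4 stood at -1.473 on the log2 scale, AT2G16005 at -2.095 and AT3G07720 at -1.375, each lower at 48 h. Their adjusted p-values were 0.0204, 0.0151 and 0.0204 in limma. Both 48 h arrays lay below both 24 h arrays, which the rule for naming genes required. BCAT4 stood at 1.291 at 48 h against the mean of 24 h and 72 h. With 2 arrays in each group, no array was tested as an outlier.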

How the results depend on the processing

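Other settings moved counts more than directions: no named gene that was called changed sign under any of those run. The 516 calls of 48 h against 0 h became 350 with the 4 arrays fitted alone, 345 with no trend of the prior variance, 424 with no filter, 500 with a filter at the 60th percentile, 550 with an offset before log2 and 520 after quantile normalization. Higher calls, 289, became 158 with those arrays alone and 192 with no trend. Leaving out 1 array gave 191 to 515 calls, 127 to 281 higher and 64 to 234 lower. Of 100 named genes, 100 kept their call or lack of one with the offset and 76 to 85 without 1 array. For 48 h against 24 h, the 3 calls became 21 with those arrays alone (3 higher, 18 lower) and 0 with no trend. Leaving out 1 array gave 0 to 4 calls, 0 to 1 higher and 0 to 3 lower. Against the mean of 24 h and 72 h, leaving out 1 array gave 0 to 2 calls, all higher, and with no trend BCAT4 had an adjusted p of 0.0505. Fewer arrays leave fewer residual degrees of freedom; the cause of the other moves was not tested. The replicate numbers did not pair the arrays of the compared groups. Differences between replicates correlated at -0.23 between 48 h and 0 h and at -0.12 between 48 h and 24 h. The highest value between any groups was 0.20, between 0 h and 3 h. With the replicate block the counts were 493, 3 and 1. A block with the 48 h numbers crossed, added after seeing the data, gave 557, 5 (5 lower) and 1.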
